A study of Mus musculus with 10 samples.

Results

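The genes Lmo1, Lmo2, Lmo3 and Lmo4, which encode the LIM-only proteins, were followed with every peak of open chromatin or Sox4 signal within 200 kb of their gene bodies in the mouse mm10 build. The genes were chosen on differences in open chromatin between genotypes seen earlier in these peak lists, above all at Lmo3. The genotype values below are therefore a description and carry no test. Within the 200 kb limits lay 185, 185 and 204 of the 165038, 145099 and 173032 autosomal ATAC peaks of wildtype replicates 1 to 3. The corresponding numbers were 198 of 208902 and 193 of 192810 peaks in knockout replicates 1 and 2. In the Sox4 lists of replicates 1 to 3 they were 108 of 158444, 62 of 72417 and 20 of 38914 peaks. The 50000 strongest peaks of the 5 ATAC libraries formed 94 regions at these genes, of 76109 regions on the autosomes. A region is the merged span of windows that reach 250 bp to either side of a summit.

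All libraries came from the cochlea of E13.5 embryos. The titles of the ATAC libraries read whole organ, while their cell type label and protocol give the epithelial layer of the cochlear duct, freed by dispase and collagenase. Open chromatin was assayed by ATAC-seq, in which a transposase cuts accessible DNA, in 3 wildtype and 2 SoxC double knockout libraries of unsorted tissue. The labels of those ATAC libraries name neither the deleted SoxC genes nor the Cre line, although a knockout single-cell library of the series came from a Pax2cre SoxC fl/fl strain. Pax2-driven Cre acts in the early otic epithelium and in some other tissues. SoxC is the group of transcription factors that holds Sox4 and its close relatives. Sox4 was mapped by CUT&RUN, in which an antibody directs a nuclease to the bound factor, with 3 replicates of p27kip1-GFP positive cells sorted from wildtype epithelium. The labels do not say whether replicates came from separate litters or how many embryos were pooled, so the spread between libraries may be technical.

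LIM-only proteins consist of little more than a pair of zinc-binding LIM domains and do not bind DNA themselves. They bridge DNA-binding proteins of the bHLH and GATA families to the cofactor Ldb1, and they can compete with LIM-homeodomain factors such as Isl1 for Ldb1. Lmo2 is required for blood formation and is active in endothelium, Lmo1 and Lmo3 are expressed mainly in the nervous system, and Lmo4 is broadly expressed in epithelia and neurons and is needed for the semicircular canals of the inner ear. Lmo3 has also served as a marker of the medial floor of the cochlear duct, beside the sensory domain.

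The promoters of Lmo3, Lmo4 and Lmo1 are shown because they differ in whether a peak lay over the gene start. RefSeq (GRCm38.p6) starts were matched for 3 of the 4 genes. Each sequence is the 250 bases before a start, on the minus strand, written 5′ to 3′. Capitals mark the letters ACAAAG or their reverse complement CTTTGT, which the HMG box of Sox factors can bind. The Lmo3 sequence is chr6:138581969-138582218, the Lmo4 sequence chr3:144205256-144205505 and the Lmo1 sequence chr7:109175208-109175457.
Lmo3: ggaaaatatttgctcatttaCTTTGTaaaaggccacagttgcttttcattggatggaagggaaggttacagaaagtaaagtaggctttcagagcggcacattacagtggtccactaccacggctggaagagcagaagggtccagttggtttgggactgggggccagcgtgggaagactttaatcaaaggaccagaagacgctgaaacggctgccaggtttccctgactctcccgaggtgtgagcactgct
Lmo4: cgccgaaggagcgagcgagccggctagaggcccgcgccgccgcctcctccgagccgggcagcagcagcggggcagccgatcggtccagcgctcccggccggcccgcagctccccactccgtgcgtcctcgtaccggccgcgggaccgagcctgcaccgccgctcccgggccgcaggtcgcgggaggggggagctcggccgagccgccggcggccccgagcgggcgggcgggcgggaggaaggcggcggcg
Lmo1: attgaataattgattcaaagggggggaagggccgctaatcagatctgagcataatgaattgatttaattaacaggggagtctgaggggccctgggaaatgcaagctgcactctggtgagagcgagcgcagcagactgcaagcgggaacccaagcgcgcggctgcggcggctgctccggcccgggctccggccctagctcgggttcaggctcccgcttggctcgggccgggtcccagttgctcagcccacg

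The GC content of these stretches was 50% for Lmo3, 82.4% for Lmo4 and 61.2% for Lmo1, against a median of 52.4% over 32851 RefSeq promoters. They held 6, 44 and 17 CpG dinucleotides, with a median of 6 over all promoters. The Lmo3 stretch held 1 copy of ACAAAG, starting 230 bases before the start, a motif present in 16.5% of all promoters of that length. None of ACAATG (10.7% of promoters), the E-boxes CAGCTG (13%) and CAGATG (14.4%), or the GATA letters AGATAA (9.99%) was found on either strand of the 3 stretches. The 50 bases after the Lmo4 start held 1 further ACAAAG. Over the Lmo4 start lay peaks of rank 3230, 1228 and 2277 in wildtype against 4837 and 2567 in knockout, where rank 1 is the peak with the highest -log10 p of its library. Over the Lmo1 start the ranks were 55480, 83152 and 60371 in wildtype against 73685 and 69035 in knockout. No ATAC or Sox4 list had a peak over the Lmo3 start. The 3 promoters thus ranged from GC-rich and strongly open at Lmo4 to no peak in any of the 8 lists at Lmo3.

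The peak lists give no read totals, so sequencing depth is unknown, and most values are ranks within a library or the deposited fold enrichment over local background. The -log10 p at rank 50000 was 8.75 to 19.0 in the wildtype lists and 50.5 and 104 in the knockout lists. The weakest peak kept had a -log10 p of 3.98 in knockout replicate 1 and of 2.00 in the other 4 lists. List length and these settings differ together with genotype and cannot be told apart from it. As a check of the tissue, peaks were read at the starts of 3 epithelial genes and 3 genes of endothelium or blood. The start of Epcam, an epithelial adhesion gene, ranked 1744 to 5436 over the 5 libraries. The keratin gene Krt8 ranked 16021, 24396 and 27352 in wildtype against 9053 and 11192 in knockout. Its partner Krt18 was weaker, at 70670, 103686 and 78025 against 31720 and 36492, so both keratin starts stood higher in the knockout order. The start of Tie1, an endothelial receptor gene, had a peak in no library, whereas that of Kdr, another endothelial receptor gene, ranked 24706 to 52057 in all 5. Ptprc, which marks blood cells, had no peak in wildtype replicate 1 and ranked 70841 to 183033 in the other 4. The part of other cell types in the genotype values was not tested.

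At Lmo3 the knockout libraries held fewer peaks than every wildtype library, although their lists were longer. Within 200 kb of the 219289-bp gene body (chr6:138362918-138582206) lay 42, 48 and 62 peaks in wildtype against 24 and 31 in knockout, or 50.7 ± 10.3 (SD, n = 3) against a mean of 27.5 (n = 2). The genotypes did not overlap. Of 18452 autosomal coding genes with a mean of at least 10 peaks, 3.98% had more peaks in every wildtype than in every knockout library, and 73.8% had the reverse. On a log2 scale with 0.5 added to each mean, the knockout over wildtype ratio was -0.87 at Lmo3 and 0.47 at the median gene. Counted from the lowest of the 18452 ratios, Lmo3 was number 161. Neighbouring genes share peaks, so these genes are not independent. In unsorted tissue, fewer cells with an open region and less opening per cell cannot be told apart.

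**Figure D1:**
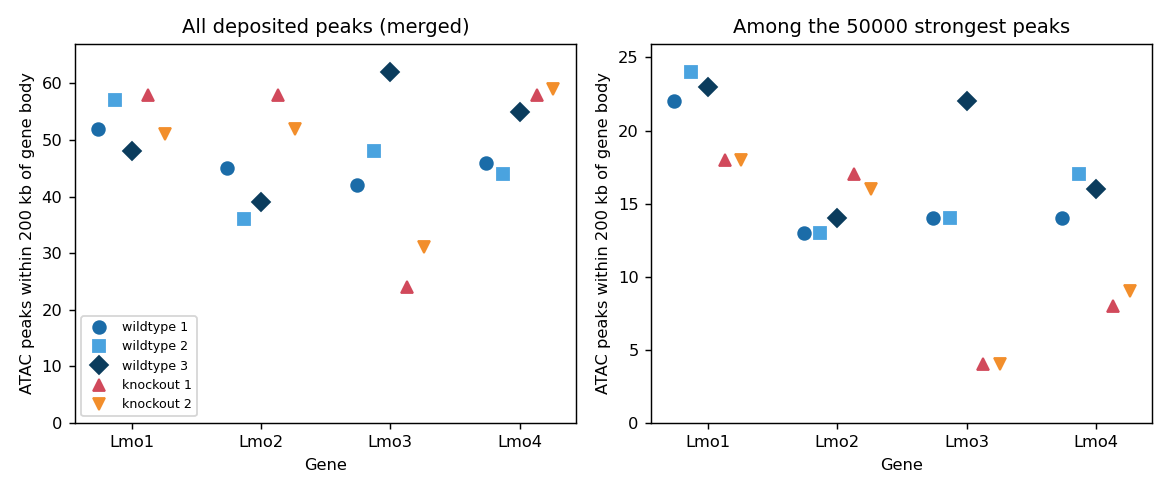
ATAC peaks within 200 kb of each Lmo gene (vertical axis, number of merged peaks), 1 symbol per library, in the full lists (left) and among the 50000 strongest peaks (right). At Lmo3 the full lists hold 42 to 62 peaks in wildtype against 24 and 31 in knockout, while Lmo2 shows the opposite order.

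The other 3 genes did not share this pattern in the full lists. At Lmo2 (chr2:103957903-103981878) 45, 36 and 39 wildtype peaks stood against 58 and 52 knockout peaks, with the knockout above every wildtype library. At Lmo4 (chr3:144188530-144205255) the counts were 46, 44 and 55 against 58 and 59, again with the knockout higher. At Lmo1 (chr7:109138565-109175207) they were 52, 57 and 48 against 58 and 51, and the genotypes overlapped. The log2 ratios were 0.46, 0.27 and 0.06 for Lmo2, Lmo4 and Lmo1. Among the 50000 strongest peaks of each library, Lmo3 had 14, 14 and 22 in wildtype and 4 in each knockout library. Lmo4 had 14, 17 and 16 against 8 and 9, and Lmo1 22, 24 and 23 against 18 in both. Lmo2 had 13, 13 and 14 against 17 and 16. At equal list length, therefore, Lmo3, Lmo4 and Lmo1 all had fewer peaks in both knockout libraries and Lmo2 had more. Of the same 18452 genes, 14.1% had more of these peaks in every wildtype library and 42.1% in every knockout library.

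**Figure D2:**
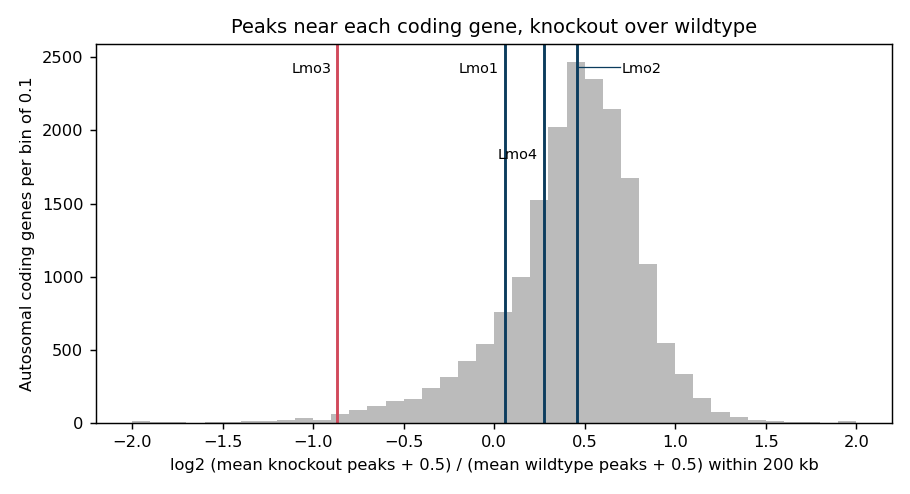
Distribution over 18452 autosomal coding genes of the log2 ratio of mean knockout to mean wildtype peaks within 200 kb (horizontal axis), with the number of genes per bin of 0.1 (vertical axis; ratios beyond 2 in size fall in the end bins). Lmo3 lies at -0.87, and Lmo1, Lmo4 and Lmo2 lie between 0.06 and 0.46.

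Lmo3 lies in a gene-poor stretch, with 3 other coding genes within 500 kb, against 4 for Lmo4, 11 for Lmo2 and 17 for Lmo1. Among the 1007 tested genes with 3 or fewer such neighbours the median log2 ratio was 0.03, and 18.5% had more peaks in every wildtype library. Among these 1007, counted from the lowest, Lmo3 was number 60. The part of gene density in the Lmo3 values was not tested. Between 200 kb and 1 Mb from the Lmo3 body the lists held 112, 117 and 135 peaks in wildtype against 112 and 121 in knockout, which overlapped. Among the 50000 strongest peaks the same ring held 33, 37 and 37 against 30 and 32, which did not overlap, so fewer strong peaks in knockout were also found beyond 200 kb.

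Lmo3 had 6 wildtype-only regions, open in each wildtype but neither knockout library among the 50000 strongest peaks, and no knockout-only region, the converse class. These were 6 of 21 regions at Lmo3, while 6.56% of all regions were wildtype-only and 7.96% knockout-only. A further 3 of the 21 were open in all 5 libraries, a class that took in 37.2% of all regions. All 6 lay within 100 kb of the body and nearest to Lmo3 among coding genes, 2 inside it and 4 on its downstream side. With the 25000 strongest peaks 1 wildtype-only region was left, and with the requirement of no peak in either full knockout list 1 was left.

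The strongest of the 6 lay inside the gene, nearer its upstream end (chr6:138551636-138552160). Its peak ranked 6229, 2853 and 2908 in wildtype against 53153 and 68880 in knockout. Its fold enrichment was 21.4, 19.7 and 17.7 in wildtype against 10.3 and 6.00 in knockout, so both scales put all wildtype libraries above both knockout libraries. By -log10 p the order was mixed, with 151, 122 and 90.0 against 94.0 and 27.7. The other intragenic wildtype-only region (chr6:138420504-138421056) ranked 26881, 17541 and 21334 against 73719 and 82148. Its fold enrichment of 8.18, 8.11 and 6.10 was also above the 5.68 and 4.09 of the knockout libraries.

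The 4 downstream regions lay between 31542 and 80523 bp beyond the end of Lmo3. The region at chr6:138317959-138318483 ranked 27582, 20291 and 23568 in wildtype, with fold enrichment 11.7, 9.15 and 7.10, and had no peak in either full knockout list. It was the 1 region at Lmo3 that stayed wildtype-only under that stricter reading. At chr6:138325669-138326171 the ranks were 15791, 30674 and 18885 against 137254 and 60722, and the fold enrichment was 16.4, 7.42 and 8.29 against 3.42 and 6.94. At chr6:138330821-138331376 the ranks were 32722, 31175 and 25463 against 90776 and 147911. At chr6:138281750-138282395 they were 47373, 35111 and 31108 against 171856 and 184520. The fold enrichment at these last 2 regions was 9.10, 6.76 and 6.53 against 5.53 and 2.69, and 7.53, 6.72 and 6.47 against 2.69 and 2.07. At all 4 downstream regions no knockout value reached a wildtype value by rank or by fold enrichment.

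**Figure D3:**
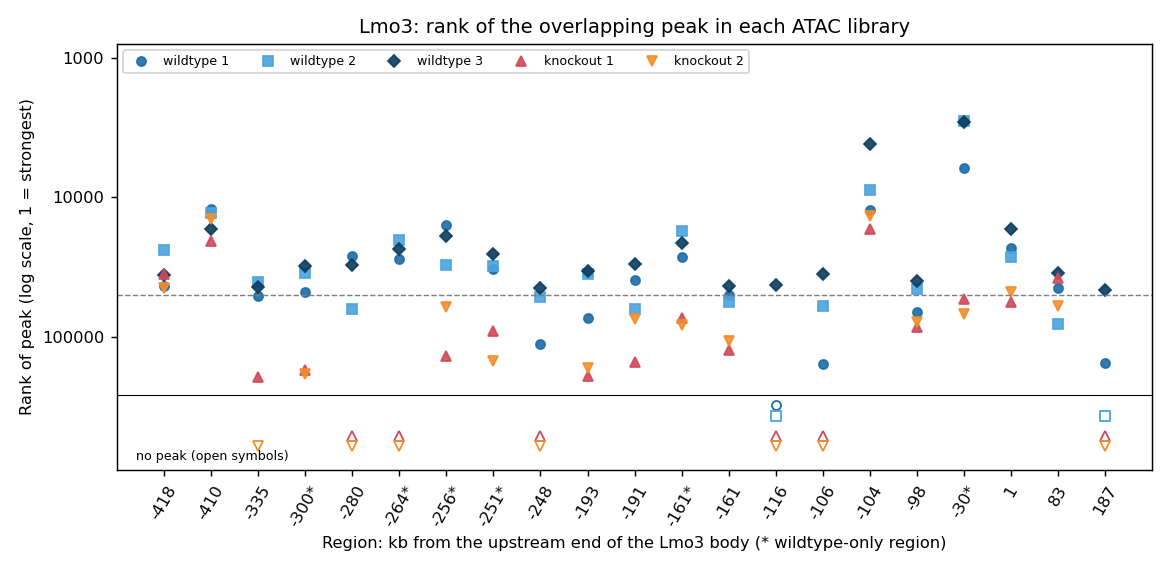
Rank of the overlapping ATAC peak (vertical axis, log scale with the strongest at the top) at the 21 regions within 200 kb of Lmo3, in order along the chromosome, 1 symbol per library. The dashed line is rank 50000, open symbols under the solid line are regions with no peak in that library, and asterisks mark the 6 wildtype-only regions. The height of an open symbol carries no value. At 18 of the 21 regions every wildtype rank is stronger than both knockout ranks, an absent peak being placed just past the end of its own list. At 2 of these 18, at least 1 wildtype list and both knockout lists had no peak. Most of the 21 regions entered through wildtype libraries alone, so the order of ranks is in part built in.

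The shift was not confined to the 6 wildtype-only regions. At 18 of the 21 Lmo3 regions (85.7%) every wildtype rank was stronger than every knockout rank. A region entered through the 50000 strongest peaks of any library, and each knockout library had only 4 such peaks at Lmo3. Most of the 21 regions therefore entered through wildtype libraries alone, so at least 1 wildtype rank was bound to be stronger than both knockout ranks. The counts by rank, fold enrichment and absence here follow in part from that entry. An absent peak took the rank just past the end of its own list, and the wildtype lists were the shorter ones. With absent peaks placed in this way, the same order held for 28.5% of all regions. The reverse held at none of the 21 and at 32.8% of all regions. By fold enrichment, an absent peak was placed below every deposited value. On that scale 12 of the 21 had every wildtype value above every knockout value, against 10.1% of all regions, and 3 had the reverse, against 45.5%. Some of the 12, among them chr6:138317959-138318483, had no deposited knockout value to compare. Both knockout lists lacked a peak at 6 of the 21 regions, against 2.1% of all regions, and at 2 of these 6 at least 1 wildtype list lacked one too. These 2 regions counted among the 18 only because the shorter wildtype lists gave an absent peak a stronger rank. Over the 14 regions with a peak in all 5 lists, the median log2 ratio of knockout to wildtype rank was 1.29, with a range from -0.08 to 4.02, where a positive value means a weaker place in the knockout order. The same median over 61050 such regions of the autosomes was 0.04, with a 5th to 95th percentile range from -1.62 to 1.82. The median was between 0.918 and 1.83 for the 6 pairs of 1 wildtype and 1 knockout library. Most of the 14 regions had no knockout peak among the 50000 strongest and entered through wildtype libraries alone. The others of the 14, which had such a knockout peak, gave 0.258, 0.308, 0.979, 1.24 and -0.08. The median of 1.29 thus rests largely on regions brought in by wildtype peaks.

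Regions near Lmo3 that were open in both genotypes differed with the scale used. The strongest over all 5 libraries lay inside the gene (chr6:138477557-138478064) and ranked 12408, 8880 and 4153 in wildtype against 16794 and 13729 in knockout. Its fold enrichment went the other way, at 19.3, 15.1 and 16.2 in wildtype against 24.4 and 22.9 in knockout. Another shared region, 190688 bp downstream (chr6:138171711-138172230), ranked 12156, 12885 and 16921 against 20463 and 14350, and the genotypes overlapped. Its fold enrichment was 18.6, 13.2 and 9.43 in wildtype, below the 22.0 of both knockout libraries. The region nearest to the Lmo3 start lay 1058 bp upstream of the body (chr6:138583264-138583786), over the long noncoding gene B230110G15Rik. There the ranks of 23217, 26945 and 16834 in wildtype were stronger than those of 56100 and 47860 in knockout. The fold enrichment of 13.2, 7.92 and 9.50 overlapped with 9.75 and 9.01. The genotypes were thus apart by rank and not by fold enrichment at this region.

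Just inside the 200 kb limit of Lmo3, at 198138 bp, a shared region ranked 43316, 24065 and 35828 in wildtype against 35638 and 44856 in knockout. Just outside it, at 209354 bp, a region ranked 66357, 48330 and 35098 in wildtype against 34407 and 27777 in knockout. The fold enrichment of the inner one was 7.73, 8.51 and 5.38 against 15.2 and 9.63, so all 3 shared regions of Lmo3 had higher fold enrichment in knockout. Neither region at the limit was wildtype-only.

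Lmo4 had 3 wildtype-only and no knockout-only regions among its 21 regions, and 7 regions shared by all libraries. Of all regions, 6.56% were wildtype-only, 7.96% knockout-only and 37.2% shared. Every wildtype rank was stronger at 7 of the 21 (33.3%, against 28.5% of all regions) and every knockout rank at 1. The region at its start, 67 bp upstream of the body (chr3:144205322-144205829), was the strongest of the locus and is the one over the promoter shown above. Its fold enrichment of 10.5, 12.7 and 9.15 in wildtype overlapped with 9.48 and 11.9 in knockout. Another shared region lay over internal starts of Lmo4 (chr3:144202160-144202677), with ranks of 14484, 28675 and 11002 in wildtype against 33313 and 21877 in knockout, which also overlapped. The start of Lmo4 was thus open in both genotypes with overlapping values.

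Between these 2 starts lay a wildtype-only region (chr3:144203751-144204262). It ranked 18648, 18714 and 25251 in wildtype, stood at 181603 in knockout replicate 1, and knockout replicate 2 had no peak there. Its fold enrichment was 5.22, 4.76 and 3.60 in wildtype and 1.50 in knockout replicate 1. The next wildtype-only region, 1162 bp downstream of the gene (chr3:144186706-144187368), ranked 49445, 37881 and 26587 against 98284 and 84569, with fold enrichment of 6.97, 5.73 and 6.39 against 5.02 and 4.76. The third lay inside the gene (chr3:144198390-144198924) and missed the limit of 50000 narrowly in knockout, with ranks of 42051, 46861 and 23116 against 55538 and 50282. Its fold enrichment of 4.49, 3.74 and 4.91 overlapped with 4.43 and 4.06. The 3 regions thus ran from a wide separation on both scales, between the starts, to a narrow one by rank alone.

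**Figure D4:**
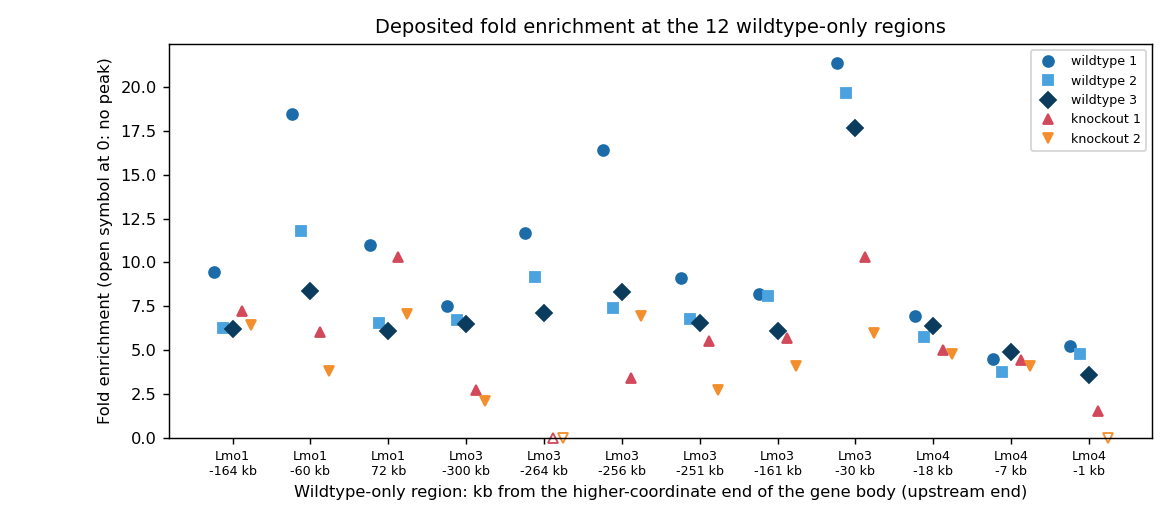
Fold enrichment of the overlapping ATAC peak (vertical axis, the authors' value) at each of the 12 wildtype-only regions of Lmo1, Lmo3 and Lmo4, 1 symbol per library, with open symbols at 0 where a list had no peak. All 6 regions at Lmo3 show every wildtype value above every knockout value, as do 2 of 3 at Lmo4 and 1 of 3 at Lmo1.

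Lmo1 had both wildtype-only and knockout-only regions. Among its 31 regions, 3 were wildtype-only, 2 knockout-only and 12 shared, while these classes held 6.56%, 7.96% and 37.2% of all regions. By rank, 9 (29.0%) had every wildtype rank stronger and 9 had every knockout rank stronger, against 28.5% and 32.8% of all regions. These counts lie near the shares of all regions and show nothing particular to Lmo1. The wildtype-only region nearest to the gene, 23145 bp downstream (chr7:109114891-109115420), ranked 13802, 15514 and 20950 in wildtype against 84404 and 103548 in knockout. Its fold enrichment was 18.5, 11.8 and 8.38 against 6.04 and 3.83. The other 2 lay nearer to another coding gene. Near Tub (chr7:109010577-109011096) the ranks were 26914, 32808 and 27948 against 72901 and 64998. Near Stk33 (chr7:109246839-109247366) they were 29404, 35573 and 33435 against 53157 and 59916. At both of these the fold enrichment overlapped between genotypes, so 1 of the 3 regions was separated on both scales.

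The 2 knockout-only regions of Lmo1 had the opposite order. Inside the gene (chr7:109144639-109145152) wildtype replicate 1 had no peak, wildtype replicates 2 and 3 ranked 69449 and 68814, and the knockout libraries ranked 37973 and 29591. The fold enrichment was 3.68 and 3.23 in those wildtype libraries and 12.6 and 12.3 in knockout. Nearer to Ric3 (chr7:109082212-109082728), 55837 bp downstream, the ranks were 61119, 102070 and 54222 in wildtype against 48647 and 40831 in knockout. The strongest region of the locus lay inside Lmo1 near its downstream end (chr7:109139350-109139865). Its ranks of 10373, 12131 and 14082 in wildtype were weaker than those of 6277 and 6384 in knockout, and its fold enrichment was 14.6, 11.4 and 8.98 against 26.1 and 24.5.

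Lmo2 was the member with the fewest differences toward wildtype. It had no wildtype-only region, 1 knockout-only region and 10 shared regions among 21, and 12 (57.1%) had every knockout rank stronger while 2 (9.52%) had every wildtype rank stronger. The shares of all regions were 6.56% wildtype-only and 7.96% knockout-only, with 32.8% and 28.5% for the ranks. Some of the 12 took a knockout rank from a peak that also spanned the next region. These were chr2:104123100-104123600, with 10218 and 10310, and chr2:103795717-103796233, with 11060 in knockout replicate 1. The knockout-only region lay 78148 bp away, nearest to Fbxo3 (chr2:104060026-104060531). It ranked 140580, 72856 and 82586 in wildtype against 29113 and 26294 in knockout, with fold enrichment of 2.74, 3.84 and 3.36 against 17.8 and 14.8. The region nearest to the gene that was shared lay 276 bp from the end of the body (chr2:103982154-103982664) and ranked 32893, 34919 and 26294 in wildtype against 24913 and 24322 in knockout. Its fold enrichment was 10.2, 6.72 and 7.25 against 19.6 and 16.0. The strongest region of the locus was 196300 bp from Lmo2, inside the neighbouring gene Nat10 (chr2:103760961-103761603), where ranks of 6768, 9669 and 8188 overlapped with 4955 and 8424. It was also the last region inside the 200 kb limit, and the next one out, at 209207 bp, was knockout-only, with ranks of 80808, 51730 and 86371 against 24940 and 17557. At Lmo1 the regions to either side of the limit, at 194116 and 203938 bp, were both shared, as was the last region inside it at Lmo4, at 194413 bp.

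**Figure D5:**
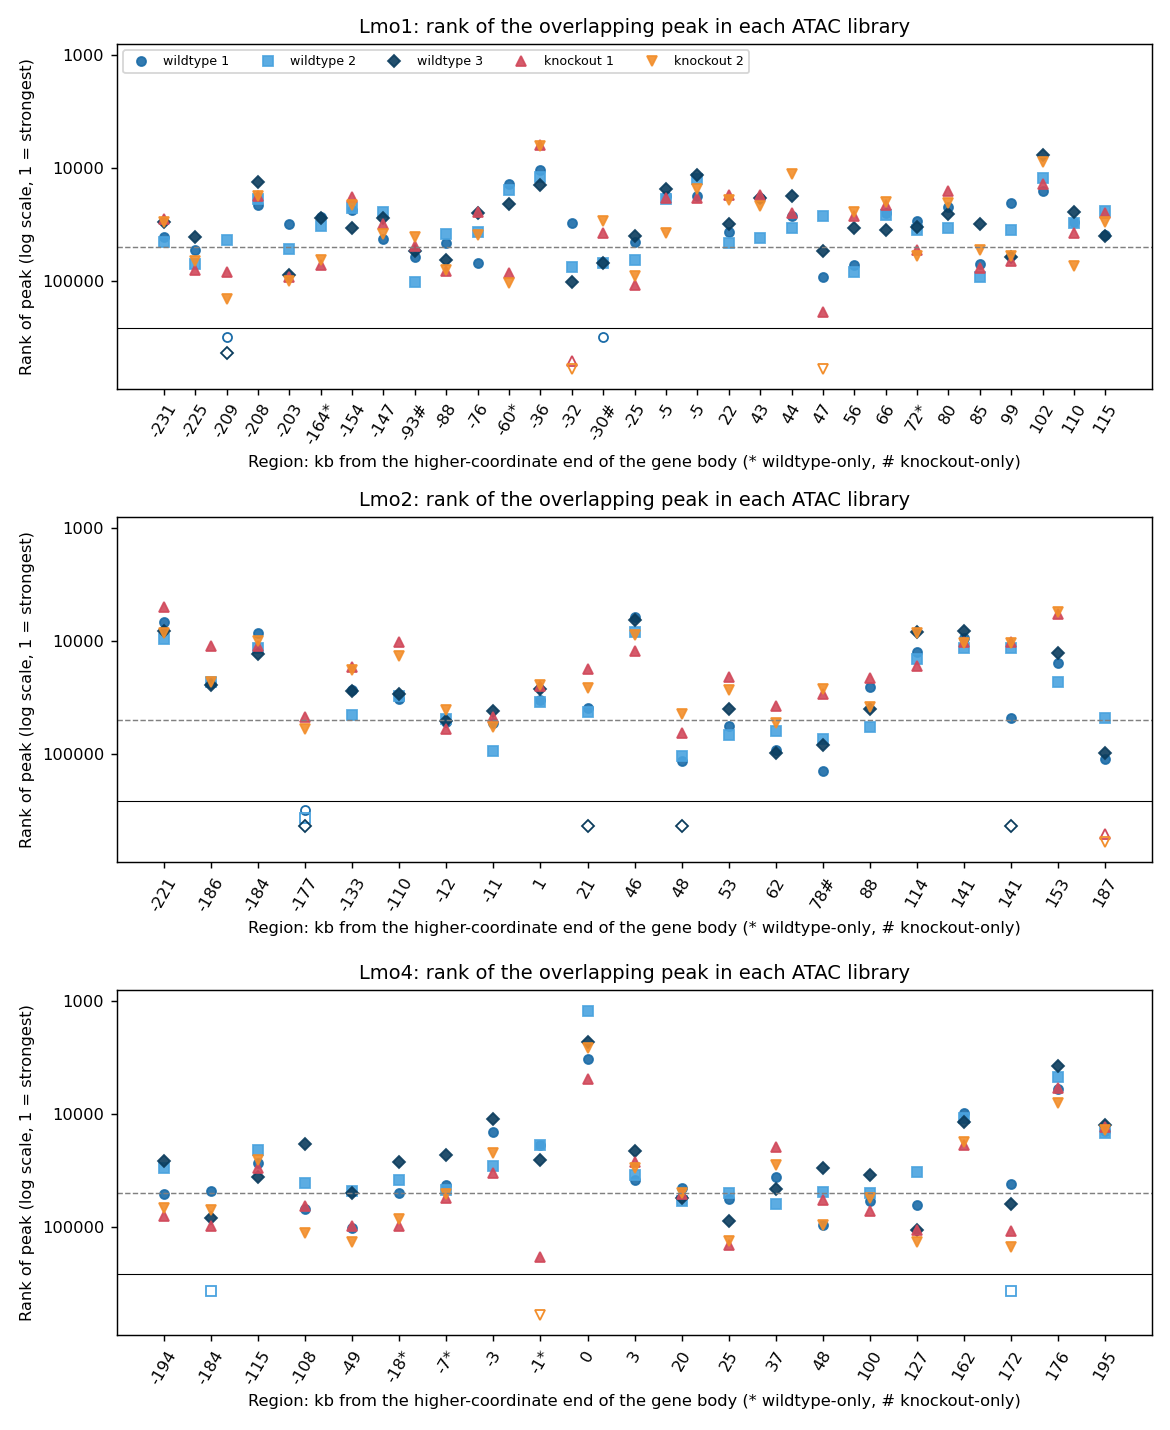
Rank of the overlapping ATAC peak (vertical axis, log scale with the strongest at the top) at the regions within 200 kb of Lmo1, Lmo2 and Lmo4, 1 symbol per library. The dashed line is rank 50000 and open symbols under the solid line are regions with no peak. Every wildtype rank is stronger at 9 of 31, 2 of 21 and 7 of 21 regions, and every knockout rank at 9, 12 and 1.

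Over the 4 loci together, 12 of 94 regions (12.8%) were wildtype-only and 3 (3.19%) knockout-only, against 6.56% and 7.96% of all regions. Of the 12 wildtype-only regions, 6 lay at Lmo3, the locus that weighed most in the choice of the genes. The median log2 ratio of knockout to wildtype rank was 1.29 at Lmo3, 0.63 at Lmo4, 0.02 at Lmo1 and -0.39 at Lmo2. These medians rest on 14, 18, 27 and 16 regions with a peak in all 5 lists, and regions of 1 locus share their libraries. They also depend on which libraries brought a region in, which at Lmo3 were mostly wildtype libraries alone.

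Sox4 peaks were found at all 4 genes, but replicates rarely placed them at the same site. Over the full lists, Sox4 replicates 1, 2 and 3 had 33, 17 and 6 peaks within 200 kb of Lmo3. They had 32, 14 and 4 at Lmo4, 21, 13 and 6 at Lmo1, and 22, 18 and 4 at Lmo2. Among the 20000 strongest peaks of each replicate, 34 fell at the 4 genes. Only 1 site was shared by 2 replicates, at Lmo4 (chr3:144006639-144007148), 181382 bp from the gene, with ranks of 8677 and 15793. It overlapped none of the ATAC regions. Over the autosomes 1706 such sites were found, and 36.3% of coding genes had at least 1 within 200 kb.

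Of the 34 Sox4 windows, 7 overlapped an ATAC region, with 4 of 8 at Lmo2, 2 of 8 at Lmo1, 1 of 8 at Lmo4 and 0 of 10 at Lmo3. Over the autosomes 12.3% of the 60000 such windows overlapped an ATAC region, so at these small numbers nothing is read from the 0 at Lmo3. At Lmo4 a replicate 2 peak (chr3:144203950-144204512) of rank 864 and fold enrichment 5.32 lay over the wildtype-only region between the 2 starts. Replicate 3 had a weak peak there, of rank 37108 and fold enrichment 2.45, and replicate 1 had none. Of the 12 wildtype-only regions it was the 1 overlapped by a Sox4 peak among the 20000 strongest. At Lmo2 a replicate 1 peak of rank 6929 and fold enrichment 5.07 (chr2:103981766-103982164) lay at the end of the body, over the shared region there. Another replicate 1 peak at that locus, of rank 139 and fold enrichment 8.76 (chr2:104027987-104028319), lay over a shared region nearer to Fbxo3. The remaining 2 at Lmo2, of ranks 1905 and 8257, and the 2 at Lmo1, of ranks 5415 and 17923, each stood among the 20000 strongest peaks of 1 replicate only. The strongest Sox4 peak at Lmo3, of rank 669 and fold enrichment 5.26 in replicate 2, lay 194083 bp from the gene (chr6:138776289-138776726). A replicate 2 peak inside Lmo3 ranked 1480 with fold enrichment 5.04. Neither lay in an ATAC region.

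The Sox4 order is coarse. In replicate 1, 16258 peaks shared the -log10 p of 6.16 found at rank 20000, and in replicate 3, 7479 shared 4.24, so places within these ties follow position and not strength. Ties also stood higher. Peaks near these genes at ranks 8470 to 9248 of replicate 1 had the same 7.19, and those at ranks 15793 to 17163 of replicate 2 the same 6.23. The ranks of 8677 and 15793 at the replicated Lmo4 site lie within these. No library made with a control antibody entered the comparison. The Sox4 libraries came from sorted p27kip1-GFP positive cells and the ATAC libraries from unsorted tissue, so the 2 assays did not sample the same cells.

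Partner genes of the LIM-only proteins were counted in the same way. Of 22 partner genes (Ldb and Ssbp cofactors, bHLH, GATA and LIM-homeodomain factors and others known to join such complexes), 5 showed wildtype-only but no knockout-only regions, 11 the converse, 5 some of each class and 1, Tal1, none. Their 615 regions held 22 wildtype-only (3.58%, against 6.56% of all regions) and 57 knockout-only regions (9.27%, against 7.96%). In none of the 22 did every wildtype library have more peaks than every knockout library, against 3.98% of all genes, and in 19 the reverse held, against 73.8%. These shares lie near those of all regions and genes and show nothing particular to the partners. Gata3, a GATA factor required for cochlear development, had 4 wildtype-only and no knockout-only regions. Ssbp2, a partner of Ldb1, had 3 and none, and Ldb2, Isl1 and Lhx9 had 2 and none each. Ldb1 itself, the core cofactor, had 2 knockout-only regions and no wildtype-only region. The bHLH genes Lyl1, Tcf12 and Nhlh2 had 8, 5 and 4 knockout-only regions and no wildtype-only region, and Tcf3 had 5 against 2. Runx1 had 7 knockout-only regions, Deaf1 5, Cbfa2t3 4, Lhx3 3 and Lhx1 2, again with no wildtype-only region. Ssbp3 had 4 knockout-only regions and 1 wildtype-only region, while Isl2 had 3 of each, Nhlh1 2 of each and Gata2 1 of each.

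Lmo3 was placed among 20665 coding genes by the number of wildtype-only minus knockout-only regions within 200 kb, which was 6 at Lmo3. Lmo3 took place 29, and 68 genes had a difference of 6 or more. The 5 highest values among genes over 1 Mb away, all beyond that of Lmo3, were at Nav3 and Nrxn3 with 10, and at B3galt1, Ctnna2 and Zbtb20 with 9. Nav3 encodes a neuron navigator protein, Nrxn3 a presynaptic neurexin, B3galt1 a galactosyltransferase, Ctnna2 the neural alpha-catenin and Zbtb20 a zinc finger repressor. Nav3 shared the lower number of peaks in knockout, with 96, 83 and 118 in wildtype against 50 and 58 in knockout. Ctnna2 did so too, with 80, 90 and 137 against 59 and 72. The genotypes overlapped at Nrxn3, with 121, 124 and 175 against 127 and 115, and at B3galt1, with 60, 66 and 99 against 62 and 63. Zbtb20 had 126, 113 and 117 against 164 and 170, so a surplus of wildtype-only regions did not always go with fewer peaks. On the same measure Lmo4 had 3, Lmo1 1 and Lmo2 -1.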

How the data were processed

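ATAC-seq (3 wildtype and 2 SoxC double knockout libraries) and Sox4 CUT&RUN (3 libraries) were read from the authors' peak lists, 1 per library. The lists hold the fold enrichment (a ratio) and -log10 p of each peak as the authors deposited them. MACS2, STAR, deepTools and UMI-tools and the builds mm10 and GRCm38 are named, per the submitters' processing notes. The names of the deposited knockout lists state a cap on peak number and 0.01 as threshold for p. The control used by the peak caller is not given in the sources used here, and the lists hold no read counts, so depth is unknown.

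Overlapping peaks were merged within a library, the strongest summit being kept, and ranked by -log10 p on the autosomes, because the wildtype lists hold no X or Y peaks. The 50000 strongest ATAC and 20000 strongest Sox4 peaks were used, each as a window reaching 250 bp to either side of its summit, merged over libraries. Gene bodies came from the RefSeq table of GRCm38.p6. Groups were taken from the labels. No test was made, since the genotype contrast chose the genes. The text names the 4 Lmo genes, their wildtype-only and knockout-only regions, the strongest region of each locus and that at the gene start, the Sox4 windows in regions or replicated (otherwise the strongest), partners with at least 2 genotype-specific regions, and the 5 genes with the largest surplus of wildtype-only over knockout-only regions. Other regions and Sox4 peaks, and the genes of the tissue check, were picked with their values in view. The members and gene lists were chosen with earlier results of these data known. The scripts were tested on simulated data. Python 3.11.15, numpy 2.4.6, pandas 2.3.3 and matplotlib 3.10.9 were used. Alternatives were the number of peaks, the full peak extents, the distance, the nearest gene, stricter absence, fold enrichment, rank scaling and each library left out. The 2 single-cell libraries were not used here.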

Additional observations from a re-analysis of the deposited data

How the results depend on the processing

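The 6 wildtype-only regions at Lmo3 became 1 with the 25000 strongest peaks and 1 when no peak was allowed in either full knockout list, kept a value of 6 or 7 under the other 5 settings of peak number, extent and distance, and were 6 to 9 with each library left out. The knockout-only count at Lmo3 was 0 under all 12 settings. At Lmo1, Lmo2 and Lmo4 together the 6 wildtype-only regions became 2 with 25000 peaks, 3 with all peaks and 0 under the strict absence, and 7 to 11 with a library left out, 11 being the value without wildtype replicate 1. Their 3 knockout-only regions became 8 with 100000 peaks, 20 with all peaks, 1 when Lmo had to be the nearest coding gene and 0 under strict absence, and were 3 to 5 with a library left out, 5 without wildtype replicate 3 and 5 without knockout replicate 2. The share of all regions changed too. Wildtype-only regions went from 6.56% to 7.83% with 25000 peaks, 1.32% with all peaks, 0.215% under strict absence and 9.94% without wildtype replicate 1. Knockout-only regions went from 7.96% to 7.22% with 100000 peaks, 9.67% with all peaks and 0.578% under strict absence. All peaks gave 319998 regions in place of 76109. The Lmo3 median log2 rank ratio of 1.29 had as its counterpart in fold enrichment (log2 wildtype over knockout) 0.50, where all regions had a median of -0.37, and it was 1.11 to 1.62 with a library left out. The 1 Sox4 site of 2 replicates became 0 with 10000 peaks, 11 with all peaks, 0 within 100 kb, 0 with the other deposited list of Sox4 replicate 1, and was 0 or 1 with a replicate left out (0 without replicate 1 and 0 without replicate 2). With tied peaks kept, an alternative chosen after seeing the data, it was 1. With absent peaks ranked last, also chosen after seeing the data, the Lmo3 ratio was 1.53. The cause of these changes was not tested, beyond the fewer or more peaks each setting admits. No paired analysis was possible because the results come from no test.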

Other observations

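By the order of ranks, Lmo4 differed more between genotypes beyond the 200 kb limit than within it. Between 200 kb and 1 Mb from its body, 27 of 49 regions (55.1%) had every wildtype rank stronger, against 7 of 21 (33.3%) within the limit. Of the 49, 8 were wildtype-only against 1 knockout-only, and of the 21 within the limit 3 were wildtype-only. The corresponding ring of Lmo3 had 22 of 46 (47.8%), with 5 wildtype-only and 1 knockout-only, that of Lmo2 19 of 77 (24.7%), with 6 and 5, and that of Lmo1 10 of 52 (19.2%), with 2 and 4. All regions of the autosomes gave 28.5%, with 6.56% wildtype-only and 7.96% knockout-only. In the Lmo4 ring the full lists held 136, 117 and 157 peaks in wildtype against 131 and 135 in knockout, which overlapped. Among the 50000 strongest peaks that ring held 35, 37 and 41 against 24 and 25, which did not overlap. Just outside the limit of Lmo4, at 205932 bp, a region ranked 5485, 3096 and 2135 in wildtype against 50196 and 41528 in knockout. It missed the wildtype-only class because knockout replicate 2 stood within the 50000 strongest peaks.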
